A study of Mus musculus with 2 samples.

Results

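Macrophages use arginine in several ways. The inducible nitric oxide synthase, encoded by *Nos2*, converts arginine to nitric oxide and citrulline and needs tetrahydrobiopterin as a cofactor. Arginine is also the source of ornithine, which feeds the polyamines. *Nos2* is a classical LPS-induced gene of mouse macrophages. The 9 genes chosen cover these routes, and 7 of them are described by name, namely *Nos2*, *Slc7a2*, *Ass1*, *Asl*, *Gch1*, *Odc1* and *Sat1*. They were chosen by gene symbol from the 37451 genes of the table, and each symbol was found in 1 row.

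Expression was measured by RNA-Seq in 1 library of WT bone marrow-derived macrophages (BMDMs) and 1 library of ΔM BMDMs, and the values are FPKMs (fragments scaled to exon length and to the number of mapped fragments). WT BMDMs came from C57BL/6 mice and ΔM BMDMs from C57BL/6 TTP fl/fl LysMCre mice, littermates of 7 to 9 weeks of age. Tristetraprolin (TTP, gene *Zfp36*) is a protein that binds AU-rich elements and destabilizes mRNAs, and its gene is deleted in myeloid cells by LysMCre, in which the lysozyme M locus drives Cre. Both groups were grown with CSF-1 from L929 cells, given 100 μM 4-thiouridine for 16 h as an RNA label, and received LPS (10 ng/ml) during 6 h. There was no unstimulated library, so the values are levels after LPS and not inductions by it. Each genotype has 1 library, and so no difference was tested.

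The steps between low FPKMs placed the depth at about 37100000 fragments in WT and 32900000 fragments in ΔM. Intervals given below are 95% Poisson intervals from this depth. They cover counting error only, not the spread between cultures or mice. *Zfp36* was at 65.3 FPKM in WT against 16.7 FPKM in ΔM, and thus lower in the library labeled ΔM. The deleted exons are not given in the sources used here, so the remaining value does not measure how complete the deletion was.

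The cells carried macrophage markers. All 9 macrophage genes examined were above 1 FPKM in both libraries, with a summed level of 4569 FPKM in WT against 3441 FPKM in ΔM. The most abundant was *Lyz2*, the lysozyme gene whose locus drives Cre, at 2481 FPKM in WT against 1356 FPKM in ΔM. *Spi1*, which encodes the transcription factor PU.1, was at 567 FPKM and 574 FPKM, and *Csf1r*, the CSF-1 receptor, at 104 FPKM and 119 FPKM. Of the 8 neutrophil genes, 1 was above 1 FPKM. This was *S100a8* at 50.7 FPKM in WT against 100 FPKM in ΔM, while *S100a9*, *Elane*, *Ly6g* and *Ngp* were listed at 0 in both. Of the 5 T cell genes, *Lck* was at 9.58 FPKM and 10.8 FPKM, and *Cd3e* and *Cd3g* were listed at 0. The B cell, fibroblast, dendritic cell, erythroid and mast cell or basophil lists each summed to less than 1 FPKM in either library. In such bulk samples a lower share of cells that express a gene and less RNA per cell cannot be told apart.

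*Nos2* was by far the most abundant of the 9 mRNAs in both libraries. FPKMs are scaled to exon length, so levels of different genes can be set side by side, with a limit for *Ass1*, *Odc1* and *Sat1*, whose sequences have copies in the genome as described below. In WT the order of the 7 genes was *Nos2*, *Gch1*, *Asl*, *Sat1*, *Slc7a2*, *Ass1* and *Odc1*, and in ΔM it was the same. With the median transcript length, the counting intervals of neighbours in this order did not overlap in either library. With the shortest annotated transcripts, those of *Asl* and *Sat1* overlapped in both libraries. In WT those of *Gch1* and *Asl* and those of *Sat1* and *Slc7a2* then overlapped as well. *Nos2* alone made up 69.0% of the summed FPKM of the 9 genes in WT and 74.7% in ΔM.

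**Figure D1:**
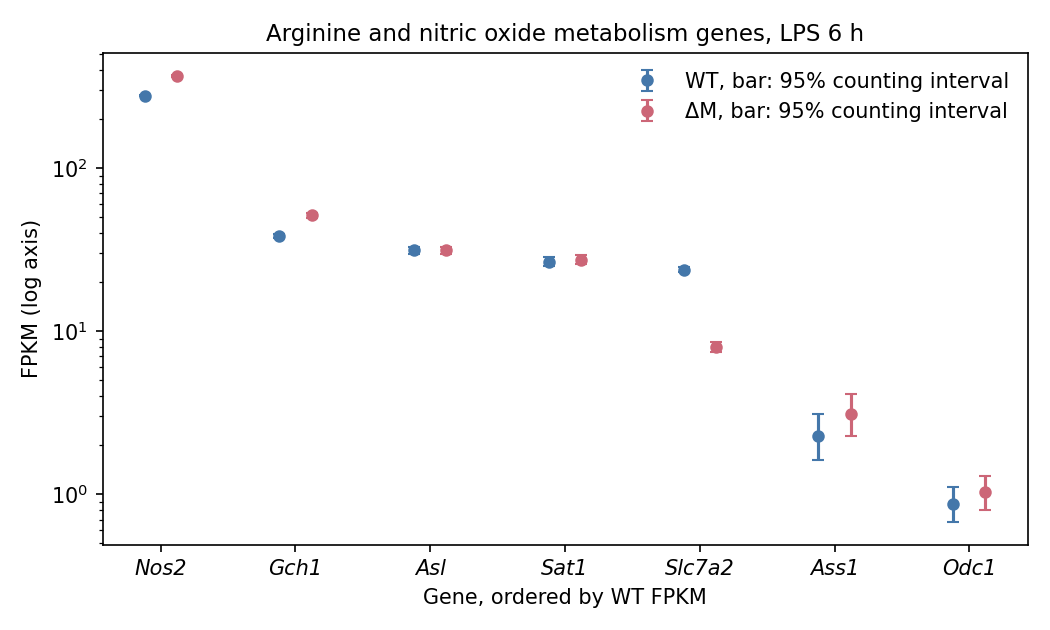
FPKM of the 7 genes (vertical axis, log scale) in the WT library and the ΔM library after 6 h of LPS, with genes ordered by WT FPKM and bars giving 95% counting intervals. *Nos2* stands at 277 and 367 FPKM, and *Slc7a2* is the gene with the widest gap (23.8 against 7.99 FPKM).

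Of the 9 genes 1, *Slc7a2*, differed at least 2-fold between the libraries. Folds were called on log2 ratios (ΔM over WT) with 1 FPKM added to each value, a scale that understates changes of low genes. *Slc7a2* was lower in ΔM, and 0 of the 9 genes were at least 2-fold higher. Among the 10765 genes of all types averaging 1 FPKM or more, 3.61% were at least 2-fold lower in ΔM, 5.69% were higher and 9.31% differed in either direction. Most of the genes that differed at least 2-fold were not protein-coding. Among the 8078 protein-coding genes the figures were 1.32%, 1.19% and 2.51%. A difference of this size in 1 of 9 genes is therefore not a statement about the group. *Odc1* had a mean of less than 1 FPKM, and 7 of the 9 genes passed this minimum.

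*Nos2* (ENSMUSG00000020826, mm9 chromosome 11, 78734289 to 78773756, plus strand) reached 277 FPKM in WT (275 to 280) and 367 FPKM in ΔM (364 to 370). The level in ΔM was 1.32 times that in WT, with a counting interval of the ratio from 1.30 to 1.34, and the log2 ratio was 0.40. Ranked by FPKM among the 8078 protein-coding genes, *Nos2* was at place 99 in WT and at place 76 in ΔM. Of the 3039 protein-coding genes averaging 10 FPKM or more, 202 (6.65%) had a log2 ratio at least as high, and a difference of this size was thus shared by many genes. The 3 protein-coding genes closest to *Nos2* over the 2 libraries, by Euclidean distance of log2(FPKM + 1), were *Usp18* at 305 and 376 FPKM with a distance of 0.14, *Plin2* at 297 and 327 FPKM with a distance of 0.19, and *Fcgr1* at 306 and 329 FPKM with a distance of 0.21. With 2 libraries this likeness says only that the pairs of levels were close. The other NO synthases were at or near 0, with *Nos1* at 0.02 FPKM in WT against 0.01 FPKM in ΔM and the endothelial gene *Nos3* listed at 0 in both.

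*Gch1* (ENSMUSG00000037580, chromosome 14, 47773570 to 47809088, minus strand) encodes GTP cyclohydrolase 1, the first and rate-limiting enzyme of tetrahydrobiopterin synthesis. It was at 38.4 FPKM in WT (37.2 to 39.7) against 51.2 FPKM in ΔM (49.7 to 52.7). The ratio was 1.33, with a counting interval from 1.28 to 1.39, and the log2 ratio of 0.41 was close to that of *Nos2*. Of the 3039 protein-coding genes, 197 (6.48%) had a log2 ratio at least as high. The later enzymes of the route were lower in level. *Pts*, which encodes 6-pyruvoyl-tetrahydropterin synthase, was at 2.32 FPKM in WT against 2.99 FPKM in ΔM, and *Spr*, which encodes sepiapterin reductase, was at 2.25 FPKM and 2.21 FPKM. *Qdpr*, whose product regenerates tetrahydrobiopterin from its oxidized form, was at 20.8 FPKM in WT against 25.6 FPKM in ΔM, a log2 ratio of 0.29. *Gchfr*, the feedback regulator of GTP cyclohydrolase 1, was at 0.06 FPKM and 0.21 FPKM, which stands for about 1 and 3 fragments.

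Only 2 of the 9 genes, *Nos2* and *Gch1*, had entries in the TTP binding site lists of the study at 6 h of LPS. The lists were used as far as they could be read. *Nos2* and *Gch1* were also the 2 most abundant of the 9 mRNAs in both libraries. The lists keep only sites above a minimum number of crosslinks, which was not scaled to expression. A missing entry of a less abundant gene therefore does not show that TTP does not bind its mRNA. Whether the sites bear on the levels was not tested. The longest sites in the 3′ UTRs of *Nos2* and *Gch1* are shown so that their base composition can be seen. For *Nos2* 6 sites were read, 5 in the 3′ UTR part of exon 27, which is the last exon, and 1 in intron 5. All 6 sequences matched the NCBIM37 genome (mm9) at the listed positions. The longest site spans 34 nt (78773594 to 78773627) and the next 31 nt (78773677 to 78773707), and the last 30 nt of each are printed with the pentamer ATTTA in capitals. For *Gch1* the 23 nt site in exon 6, the last exon, is printed whole.
Nos2, chr11:78773598-78773627, plus strand: ctatgtacagatATTTAtacttcatATTTA
Nos2, chr11:78773678-78773707, plus strand: tataattccttgatgaaaaatATTTAtata
Nos2, chr11:78773638-78773660, plus strand: tacttttgtctactcccaatgat
Gch1, chr14:47775334-47775356, minus strand: aattgtATTTAataattATTTAt
Both longer *Nos2* sites and the *Gch1* site contain the heptamer TATTTAT, and the third *Nos2* sequence contains neither motif. The intronic TTP site of *Nos2* (78745836 to 78745843) shares 7 nt with a site listed for HuR, an mRNA-stabilizing protein, and another HuR site begins after a gap of 3 nt. This HuR site is shown because it carries the heptamer inside an intron.
Nos2, chr11:78745847-78745861, plus strand: tttATTTAtttggtt

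AU-rich motifs were present in the 3′ UTRs of most of the 9 genes, including genes without listed sites. In the longest annotated 3′ UTR of each gene, read on the sense strand with overlaps counted, ATTTA was found in 7 of the 9 genes and TATTTAT, which contains ATTTA, in 3. Among 21952 protein-coding genes with an annotated 3′ UTR the shares were 55.9% and 21.7%. The 3 genes with the heptamer were *Nos2*, *Gch1* and *Slc7a2*. *Nos2* carried 3 pentamers and 2 heptamers in 505 nt, where 11.8% of the 2180 genes with a 3′ UTR of similar length carry a heptamer. *Gch1* carried 7 pentamers and 1 heptamer in 1906 nt, and 36.4% of 3046 genes of like length carry a heptamer. *Slc7a2* carried 12 pentamers and 1 heptamer in 5777 nt, a length at which 65.6% of 494 genes carry a heptamer. Of the 3 genes with the heptamer, *Nos2* and *Gch1* were higher in ΔM and *Slc7a2* was lower. Whether the motif bears on these differences was not tested.

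*Slc7a2* (ENSMUSG00000031596, chromosome 8, 41947750 to 42007662, plus strand) encodes CAT-2, the cationic amino acid transporter that macrophages induce for arginine uptake. It was at 23.8 FPKM in WT (22.9 to 24.6) against 7.99 FPKM in ΔM (7.48 to 8.53). The level in ΔM was 2.98-fold lower, with a counting interval from 2.76 to 3.21, and the log2 ratio was -1.46. Of the 3039 protein-coding genes averaging 10 FPKM or more, 8 had a log2 ratio this low or lower, *Slc7a2* and the deleted *Zfp36* included. The others were *Ccl22*, *Slc8a1*, *Apoe*, *2210012G02Rik*, *Gm17658* and *Gm6020*, of which the last 2 are listed at 0 in ΔM, and *Ccl22*, a chemokine gene, was at 48.0 FPKM and 10.9 FPKM. These genes were named after their values were seen. *Slc7a2* has 5 annotated transcripts and the table gives their sum, so that a change in the use of isoforms of different length cannot be told apart from a change in total level. A lincRNA gene on the opposite strand, *Gm17475*, overlaps 635 of the 9135 exonic positions of *Slc7a2*, but was low at 0.52 FPKM and 0.26 FPKM. Within 200 kb, an examination added after the fall was seen, *Mtus1* was at 11.3 FPKM in WT against 10.5 FPKM in ΔM, and the other 5 protein-coding genes were at most at 0.11 FPKM in either library.

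On the scale with 1 FPKM added, other transporters of cationic amino acids fell less or rose. *Slc7a1*, the widely expressed transporter CAT-1, was at 2.33 FPKM in WT against 1.65 FPKM in ΔM, a log2 ratio of -0.33, and the counting interval of the ratio of 0.708 ran from 0.535 to 0.934. *Slc7a6*, which encodes the y+LAT2 subunit, was low and also fell, from 0.43 FPKM to 0.23 FPKM, with a counting interval of the ratio from 0.324 to 0.862. *Slc7a7*, which encodes the y+LAT1 subunit for the exchange of cationic against neutral amino acids, was at 6.01 FPKM in WT against 7.97 FPKM in ΔM, a log2 ratio of 0.36. *Slc3a2*, the heavy chain that pairs with it, was at 36.4 FPKM and 33.2 FPKM, a log2 ratio of -0.13. *Slc7a3* and the mitochondrial carriers *Slc25a15*, *Slc25a2* and *Slc25a29* had means of less than 1 FPKM. In WT *Slc7a2* was thus the most abundant transporter of the list apart from the heavy chain, whereas in ΔM its level was close to that of *Slc7a7*.

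The citrulline made by NO synthase can be turned back into arginine by argininosuccinate synthase (*Ass1*) and argininosuccinate lyase (*Asl*). *Asl* (ENSMUSG00000025533, chromosome 5, 130487128 to 130501002, minus strand) was at 31.3 FPKM in both libraries (29.8 to 32.9 in WT, 29.6 to 33.0 in ΔM). The ratio was 0.999 and its counting interval ran from 0.928 to 1.08, so that no direction can be given. *Ass1* (ENSMUSG00000076441, chromosome 2, 31325727 to 31376192, plus strand) was much lower, at 2.28 FPKM in WT (1.62 to 3.12) against 3.11 FPKM in ΔM (2.29 to 4.13). The counting interval of the ratio of 1.36 ran from 0.874 to 2.14 and included 1 with the median transcript length of 662 nt. With the longest transcript of 1696 nt, an alternative chosen after seeing the data, it ran from 1.07 to 1.74, so whether counting error covers the difference depends on the transcript. Within the libraries the ratio of *Ass1* to *Asl* was 0.0728 in WT and 0.0995 in ΔM.

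The low *Ass1* value cannot be read as the level of its mRNA, because much of its sequence has a copy in the genome. The copies were examined after the values were seen. Of 160 windows of 100 nt along the *Ass1* transcript, 99 (61.9%) aligned as well or better elsewhere in mm9, 97 of them to the pseudogene *Gm5424* on chromosome 10. The authors kept uniquely mapped reads, so a read that fits both places equally well would not be counted. A read that fits the copy better would be placed there. The fate of single reads was not examined. *Gm5424* itself was at 8.71 FPKM in WT against 11.5 FPKM in ΔM, which is 3.82 times and 3.69 times the FPKM of *Ass1*. The sum of gene and pseudogene was 10.99 FPKM in WT against 14.6 FPKM in ΔM, a ratio of 1.33, and a sum of this size would place *Ass1* above *Slc7a2* in ΔM. How many of the *Gm5424* fragments came from *Ass1* was not tested.

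Genes associated with alternative activation of macrophages were low, with *Chil3*, *Retnla* and *Cd163* below 0.1 FPKM in both libraries. *Mrc1*, the mannose receptor, was the most abundant of these 6 genes at 5.45 FPKM in WT against 11.6 FPKM in ΔM, and the list summed to 7.72 FPKM and 13.2 FPKM. *Ccl24* was at 1.09 FPKM and 0.56 FPKM and *Clec10a* at 1.06 FPKM and 1.02 FPKM.

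No difference between the libraries was detectable for the 2 polyamine genes. *Sat1* (ENSMUSG00000025283, chromosome X, 151647675 to 151650992, minus strand) encodes the acetyltransferase that starts polyamine breakdown and export. It was at 26.6 FPKM in WT (24.9 to 28.4) against 27.4 FPKM in ΔM (25.6 to 29.3), and the counting interval of the ratio of 1.03 ran from 0.939 to 1.13, with a log2 ratio of 0.04 that turned to -0.12 when scaled to *Hprt*. *Odc1* (ENSMUSG00000011179, chromosome 12, 17551679 to 17558308, plus strand) encodes ornithine decarboxylase, the first enzyme of polyamine synthesis. It was at 0.87 FPKM in WT (0.674 to 1.10) against 1.03 FPKM in ΔM (0.803 to 1.30), with an interval of the ratio of 1.18 from 0.835 to 1.68. The ratio of *Odc1* to *Sat1* was 0.0327 in WT and 0.0375 in ΔM.

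For *Odc1* 86 of 245 windows of 100 nt (35.1%) and for *Sat1* 27 of 107 windows (25.2%) aligned as well or better elsewhere in the genome, so that their levels may be understated. The *Odc1* windows fell on several chromosomes, among them the pseudogenes *Gm17709*, *Gm9115* and *Gm7278*. *Gm9115* was at 0.05 FPKM in WT against 0.16 FPKM in ΔM and *Gm7278* at 0.07 FPKM and 0.05 FPKM, and *Gm17709* is not in the table. Other windows fell within the bounds of genes such as *Rgl1*, which was at 90.4 FPKM and 87.2 FPKM, and how many *Odc1* fragments were counted elsewhere was not tested. The remaining 6 genes had 0 such windows. An annotated snoRNA inside an intron of *Odc1*, *SNORA42*, was at 532 FPKM in WT against 783 FPKM in ΔM, shares 0 exonic positions with it and is much shorter than the fragments, so its FPKM is not comparable with those of mRNAs.

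A list of 51 other genes of arginine transport, the urea cycle, tetrahydrobiopterin, ornithine and proline, polyamines, hypusine, methylarginines and the response to nitric oxide was examined, and 21 of them had a mean of at least 1 FPKM. At a threshold of 1.5-fold, 0 of these 21 were higher in ΔM and 0 were lower on the scale with 1 FPKM added. Among all genes averaging 1 FPKM or more, 11.2% were higher by this threshold, 7.51% were lower and 18.7% differed in either direction, and among the protein-coding genes 4.82%, 5.36% and 10.2%. The log2 ratios of the 21 genes ran from -0.33 to 0.36 with a median of 0.03, and the median was 0.03 for all genes tested and -0.0015 for the protein-coding genes. Of the 21 genes, 12 were above 0 and 9 below. For 6 of them the counting interval of the ratio did not include 1, with *Slc7a7*, *Qdpr*, *Oat* and *Gamt*, which encodes an enzyme of creatine synthesis, higher in ΔM and *Slc7a1* and *Slc3a2* lower. The other 30 genes had means of less than 1 FPKM, where this scale hides most changes. Of these, 22 were above 0 in both libraries, and for 3, *Slc7a6*, *Azin2* and *Pycr1*, the interval did not include 1. Both counts of intervals were added after the values were seen. The share of all genes with such intervals was not determined, so neither count is a statement about the list. *Azin2*, which encodes an antizyme inhibitor, was at 0.43 FPKM in WT against 0.98 FPKM in ΔM, with a ratio of 2.28 and an interval from 1.38 to 3.86. *Pycr1*, which encodes an enzyme of proline synthesis, was at 0.40 FPKM in WT against 0.02 FPKM in ΔM, and the interval of the ratio had an upper end of 0.835.

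**Figure D2:**
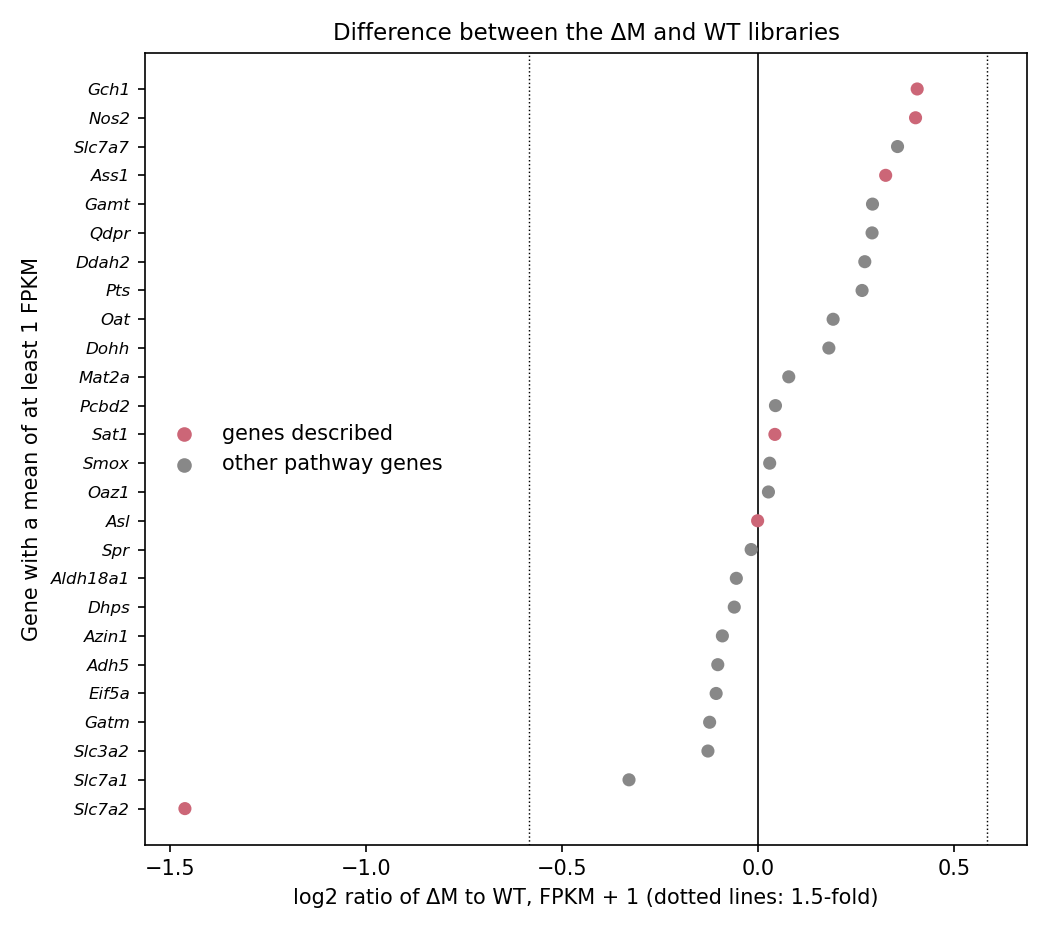
Log2 ratio of ΔM to WT after adding 1 FPKM (horizontal axis) for 6 of the genes described and 20 of the 21 other pathway genes that had a mean of at least 1 FPKM, with dotted lines at 1.5-fold. *Slc7a2* lies at -1.46 and all other genes plotted lie between -0.33 and 0.41, and the range from -0.33 to 0.36 given above covers all 21 pathway genes.

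The naming rule for this list, a mean of at least 50 FPKM or a difference past 1.5-fold, was met by 0 genes, and the pathway genes named above and below were named after their values were seen. By mean FPKM the most abundant were *Slc3a2*, given above, and *Dhps*, which encodes deoxyhypusine synthase, an enzyme that uses the polyamine spermidine. *Dhps* was at 36.0 FPKM in WT against 34.5 FPKM in ΔM. *Smox*, which encodes spermine oxidase, was at 30.0 FPKM and 30.7 FPKM, and *Eif5a*, which encodes the substrate of deoxyhypusine synthase, was at 28.5 FPKM and 26.4 FPKM. Among the regulators of ornithine decarboxylase, *Azin1*, the antizyme inhibitor, was at 24.6 FPKM and 23.0 FPKM and *Oaz1*, the antizyme, at 13.1 FPKM and 13.4 FPKM. Enzymes downstream of ornithine decarboxylase were low, with *Srm* at 0.49 FPKM and 0.70 FPKM, *Sms* at 0.36 FPKM and 0.39 FPKM and *Amd1* at 0.15 FPKM and 0.14 FPKM. *Oat*, which encodes ornithine aminotransferase, was intermediate at 5.77 FPKM and 6.73 FPKM. The urea cycle genes of the liver were near 0, with *Otc* at 0.02 FPKM in WT and listed at 0 in ΔM and *Cps1* at 0.03 FPKM and 0.01 FPKM. *Ddah2*, which breaks down the methylarginines that inhibit NO synthases, was at 1.36 FPKM and 1.85 FPKM. The soluble guanylate cyclase genes *Gucy1a1* and *Gucy1b1*, which encode the receptor for nitric oxide, were at most at 0.03 FPKM, whereas *Adh5*, whose product reduces S-nitrosoglutathione, was at 17.1 FPKM and 15.9 FPKM.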

How the data were processed

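RNA from WT and ΔM BMDMs was depleted of rRNA and fragmented, cDNA of 200 to 300 nt was selected, and libraries were sequenced paired-end. The authors removed adaptors with Cutadapt and used Segemehl for mapping to mm9. From uniquely mapped reads they derived FPKM values by Cufflinks on Ensembl exons. The deposited FPKMs are gene values with 2 decimals, and 1 of the 37451 genes has no number in ΔM. No count model was used. The titles of both samples end in LPS7, a number that the sources do not explain, and the 6 h given here is the time in the protocol. Identifiers were matched to the GENCODE M1 annotation of NCBIM37 (37039 found), and of the genes named *Spi1*, *Gucy1a1*, *Gucy1b1*, *Azin2* and *Chil3* are listed under the older symbols *Sfpi1*, *Gucy1a3*, *Gucy1b3*, *Adc* and *Chi3l3*.

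To both values 1 FPKM was added before log2 ratios (ΔM over WT) were taken, which understates the change of low genes, and libraries were not scaled to each other. Depth and mean fragment length (202 nt in both) were those at which low values (fewer than 8 fragments) of genes with 1 transcript of 350 to 1500 nt became whole fragment numbers within 0.15 fragments, which was so for 92.9% of 1342 values in WT and 93.6% of 1278 in ΔM, against 21.2% and 19.3% at other depths. The search was tested on simulated data. 3′ UTRs counted as similar in length when the shorter had at least 0.8 of the longer. Fragment numbers use the median annotated transcript length and are approximate. Windows were aligned with minimap2 2.31. Python 3.11.15, numpy 2.4.6, pandas 2.3.3, scipy 1.17.1, pysam 0.24.0 and matplotlib 3.10.9 were used. By the naming rule 7 of the 9 genes, *Zfp36*, pathway genes past 1.5-fold or with a mean of at least 50 FPKM, and 3 genes nearest to *Nos2* are named. As 0 pathway genes met the rule, the pathway genes in the text, the genes with large falls and the markers given singly were picked after their values were seen. The genes and lists were chosen with earlier results of these data known. Positions and sequences of binding sites came from the supplementary tables of the study.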

Additional observations from a re-analysis of the deposited data

How the results depend on the processing

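No paired analysis was possible because each genotype has 1 library, and no library could be left out. Alternatives were set out beforehand for the pseudocount, the filter on low values, the centring and the scaling. *Slc7a2* stayed lower in ΔM under its 5 alternatives, with log2 ratios from -1.74 to -1.46, and *Nos2* (0.24 to 0.41) and *Gch1* (0.25 to 0.42) stayed higher under theirs. Scaling to *Hprt* was done without a pseudocount and so changed 2 choices at once. It shifts ratios without pseudocount by -0.16 and gave the lowest values of these 3 genes. It turned *Sat1* to -0.12, and scaling to summed protein-coding FPKM turned *Asl* to 0.0032, both too close to 0 to give a direction. 1 of the 9 genes was past 2-fold with a pseudocount of 0.1 FPKM and after centring, and the same 1 was past a threshold of 1.5-fold, and 0 of the pathway genes were past 1.5-fold under each of 4 alternatives. The share of genes past 2-fold went from 9.31% to 2.85% with no filter on low values and to 2.51% among protein-coding genes. Adding 1 FPKM to both genes, which pulls ratios of low genes towards 1 by construction, took *Ass1* to *Asl* in WT to 0.102, and *Odc1* to *Sat1* to 0.0677 in WT and 0.0714 in ΔM. The transcript length was varied after seeing the data. With the longest transcripts, 4 in place of 5 counting intervals of the ratio included 1, and that of *Ass1* no longer did. Of the 7 genes named, depth limits *Ass1* and *Odc1* most.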
